A study of Mus musculus with 6 samples.

Results

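The MHC class I antigen presentation machinery was followed through 10 genes, picked by name for their place in the pathway out of the 23557 genes measured: the heavy chains H2-K1 and H2-D1, the light chain B2m, the peptide transporter Tap1 and Tap2, tapasin (Tapbp), the transactivator Nlrc5 and the immunoproteasome subunits Psmb8, Psmb9 and Psmb10. All 10 were found in the table and passed the filter on low counts. RNA was sequenced from whole CT26 tumors, CT26 being a mouse colorectal carcinoma line of BALB/c origin. Female BALB/c mice, 7 weeks old, received 500000 CT26 cells under the skin and were injected intraperitoneally 2 times per week from day 6, either with NaCl alone or with H89 at 10 mg/kg in NaCl. H89 is a small-molecule inhibitor of protein kinase A that also inhibits other kinases. The series held 3 NaCl and 3 H89 tumors, 1 per mouse, all removed on day 14 after the cells were injected and frozen whole, so each library mixed RNA of the grafted cells with that of the stroma, vessels and leukocytes of the host. No allele or transgene distinguished the groups. The tumors gave between 27067349 and 31958793 estimated counts, and levels are given as counts per 1000000 (CPM).

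Class I molecules display short peptides from inside the cell to CD8+ T cells. The proteasome cuts proteins into peptides, TAP carries the peptides into the endoplasmic reticulum, and the peptide loading complex places them on a heavy chain paired with beta-2-microglobulin. Interferon-gamma exchanges the catalytic subunits of the constitutive proteasome for those of the immunoproteasome and raises the other genes of the pathway, and NLRC5 acts at class I promoters as their dedicated transactivator. Tumor cells that lose the pathway are poorly seen by CD8+ T cells, while low class I exposes them to NK cells.

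Most of these genes lie close together in the H2 complex on chromosome 17 (GRCm38 coordinates, annotation of GENCODE M21). Tapbp spans bases 33915899 to 33929292 on the plus strand and H2-K1 bases 33996017 to 34000347 on the minus strand. The next cluster holds Psmb9 (34181987 to 34187764, minus), Tap1 (34187553 to 34197225, plus), Psmb8 (34197721 to 34201454, plus) and Tap2 (34203527 to 34216321, plus), and H2-D1 follows at 35262730 to 35267499 on the plus strand. B2m lies on chromosome 2 (122147686 to 122153083, plus). Nlrc5 (94434356 to 94527272, plus) and Psmb10 (105935735 to 105938444, minus) lie on chromosome 8. Psmb9 and Tap1 run in opposite directions and share 212 bases at their starts.

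Promoter sequence is shown for both heavy chains, for B2m and for Tap1, because the members varied together over the tumors and because class I promoters are known for a common set of elements: an enhancer bound by NF-kB, an interferon-stimulated response element bound by interferon regulatory factors, and a module read by RFX, CREB-family and NF-Y factors together with NLRC5. The stretches come from the RefSeq promoter table for GRCm38.p6, which had an entry for 8 of the 10 genes (not for Tap2 and Nlrc5), and are written 5′ to 3′ in the direction of the gene. Capitals mark every match, on either strand, to GGGGATTCC (NF-kB type), GAANNGAAA (interferon-stimulated type), TGACG (a CREB-type core) and CCAAT (the NF-Y box). None of the marked matches overlaps another.
H2-K1, chr17:34000325-34000468, minus strand: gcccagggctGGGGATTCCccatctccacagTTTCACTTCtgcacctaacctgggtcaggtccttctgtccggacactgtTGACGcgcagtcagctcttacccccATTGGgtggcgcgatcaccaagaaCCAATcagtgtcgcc
H2-D1, chr17:35262913-35263055, plus strand: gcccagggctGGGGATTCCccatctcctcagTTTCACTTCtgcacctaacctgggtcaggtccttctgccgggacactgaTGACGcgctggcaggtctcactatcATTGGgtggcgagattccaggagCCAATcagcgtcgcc
B2m, chr2:122147599-122147648, plus strand: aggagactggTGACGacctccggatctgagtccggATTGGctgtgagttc
Tap1, chr17:34187324-34187484, plus strand: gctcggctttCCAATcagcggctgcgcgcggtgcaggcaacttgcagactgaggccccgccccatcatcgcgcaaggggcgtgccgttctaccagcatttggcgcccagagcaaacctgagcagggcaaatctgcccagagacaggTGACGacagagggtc

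The heavy chains H2-K1 and H2-D1 carried all 4 motifs in the same order. In the window of 300 bases around the start given by the promoter table (250 before it, 50 after it), the NF-kB type stood in 2 of the 8 members' promoters, H2-K1 and H2-D1, and in 0.25% of all 32851 promoters of that length. For H2-D1, Tapbp, Psmb8, Psmb9 and Psmb10 this start lies more than a few bases inside the GENCODE bounds above. The windows of H2-D1, Tapbp, Psmb8 and Psmb9 lie wholly inside those bounds, past the outermost start of the gene. That of Psmb10 reaches beyond them. The interferon-stimulated type stood in the same 2 members and in 7.52% of all promoters. TGACG was found in 5 of the 8 members' windows (20.8% of all promoters) and CCAAT in 6 of 8 (37.4%). B2m held a second TGACG after its start, outside the stretch shown. The windows of Tap1 and Psmb9 share 275 bases, so these 2 genes were not independent in the counts. The stretches of H2-K1 and H2-D1 are near copies of one another, so these 2 were not independent either. Psmb8 and Psmb10 held none of the 4 motifs in this window, which says nothing about sites elsewhere. For all 8 promoters only the patterns as written were searched, so a motif that was not found may be present in another form. The reference is that of C57BL/6J, whose H2 haplotype differs from that of BALB/c.

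The comparison of H89 with NaCl tumors asked whether the kinase inhibitor altered expression of the class I machinery. The fitted log2 fold change was above 0 for all 10 genes, against 50.6% of the 13118 genes tested. It ranged from 0.33 for H2-K1 to 1.02 for Nlrc5, with a median of 0.70 beside 0.00405 over all genes tested. None of the 10 reached a Benjamini-Hochberg adjusted p under 0.05 in edgeR's quasi-likelihood test, against 1.59% of all genes tested (0.861% higher in H89), and the lowest adjusted p was 0.0888, for Nlrc5. At an unadjusted p under 0.05 there were 4 of the 10 (B2m, Tap1, Tap2 and Nlrc5), against 25.0% of all genes tested in either direction and 13.1% in this one. With DESeq2, 1 of the 10, Nlrc5, was called (4.94% of the genes with a DESeq2 adjusted p were called higher), and limma called 0. Every H89 tumor lay above every NaCl tumor for 2 of the 10, B2m and Nlrc5, against 20.5% of all genes tested. Once CPM was scaled by TMM, the normalization of the test, this held for 1 of the 10, Nlrc5, against 15.2%.

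**Figure D1:**
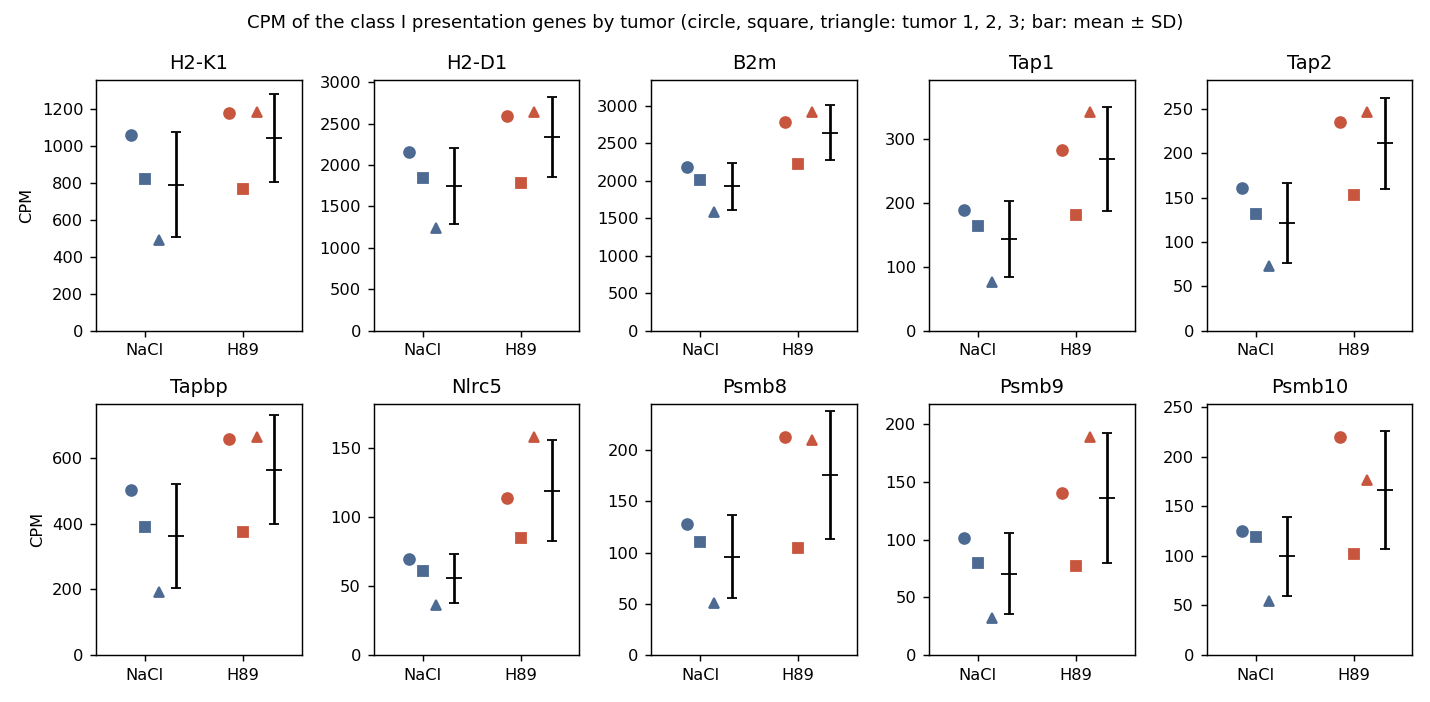
CPM (y axis, from 0, a separate scale for each gene) of the 10 class I genes in each tumor, NaCl in blue and H89 in red, with the mean and SD of 3 tumors as a bar beside the points. NaCl tumor 3 is the lowest point in all 10 panels, H89 tumors 1 and 3 lie above every NaCl tumor in all 10, and H89 tumor 2 lies within the NaCl range in 8.

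H2-K1 encodes the classical heavy chain K, with 1055, 818 and 492 CPM in NaCl tumors 1, 2 and 3 and 1177, 765 and 1179 CPM in H89 tumors 1, 2 and 3. The groups overlapped, since H89 tumor 2 lay below NaCl tumors 1 and 2. Means were 789 ± 283 and 1040 ± 238 (SD, n = 3 each), and the log2 fold change was 0.33 (SE 0.28, edgeR, adjusted p = 0.505). For H2-D1, the classical heavy chain D, the tumors read 2157, 1844 and 1243 CPM under NaCl and 2595, 1784 and 2637 under H89. The tumors stood in the same order as for H2-K1, again with H89 tumor 2 inside the NaCl range. H2-D1 averaged 1748 ± 464 and 2339 ± 481 CPM (SD, n = 3 each), with a log2 fold change of 0.35 (SE 0.23, edgeR, adjusted p = 0.376). B2m, the light chain needed by every classical heavy chain, stood at 2184, 2012 and 1579 CPM in the NaCl tumors and at 2781, 2217 and 2908 CPM in the H89 tumors. H89 tumor 2 was barely above NaCl tumor 1, and after TMM scaling it was below it, at 2154 against 2284. The means of B2m were 1925 ± 312 and 2636 ± 368 CPM (SD, n = 3 each), and the log2 fold change was 0.38 (SE 0.16, 95% interval 0.02 to 0.74, edgeR, adjusted p = 0.183).

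Per kilobase of the longest coding transcript, B2m was the most abundant of the 10 in both groups (2238 CPM per kb under NaCl and 3065 under H89), followed by H2-D1 (832 and 1113) and H2-K1 (487 and 642). The balance of heavy to light chain overlapped between the groups, as the log2 ratio of summed H2-K1 and H2-D1 CPM to B2m CPM was 0.56, 0.40 and 0.14 in the NaCl and 0.44, 0.20 and 0.39 in the H89 tumors, a difference of -0.02 (p = 0.9 in a two-sided exact permutation test, for which 6 tumors allow 10 splits and no p below 0.1). Counts of the heavy chains depend on how reads were shared out, as 22.8% of the 31-base words in H2-K1 transcripts and 26.9% of those in H2-D1 also occur in transcripts of other genes, most often in one another. B2m shares none. The summed CPM of 12 heavy chain genes of the K, D, Q and T regions, which does not depend on that division among them, was 4099, 3447 and 2210 in the NaCl tumors and 5094, 3426 and 5356 in the H89 tumors. The sums averaged 3252 ± 960 and 4625 ± 1047 CPM (SD, n = 3 each), a log2 difference of 0.53 (exact permutation test, p = 0.3) in which H89 tumor 2 lay below NaCl tumors 1 and 2. H2-K1 and H2-D1 made up 78.4%, 77.2% and 78.6% of this sum in the NaCl tumors and 74%, 74.4% and 71.2% in the H89 tumors. This share was lower in every H89 tumor than in any NaCl tumor. Unlike the sum, it depends on how reads were divided among the 12 genes, and the difference was not tested. The build named for the counts is that of C57BL/6J, whose H2 haplotype differs from that of BALB/c. Reads of the heavy chains may therefore have been lost or assigned to the wrong gene. Their levels, rank, ratio to B2m, sum and share could not be checked against a BALB/c reference.

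Tap1 and Tap2 encode the subunits of the peptide transporter. Tap1 read 189, 164 and 75.3 CPM in the NaCl tumors and 283, 180 and 341 CPM in the H89 tumors. H89 tumors 1 and 3 were above all NaCl tumors and H89 tumor 2 lay between NaCl tumors 1 and 2. Its mean was 143 ± 59.8 CPM under NaCl and 268 ± 81.8 under H89 (SD, n = 3 each), and the fit gave a log2 fold change of 0.83 (SE 0.35, 95% interval 0.03 to 1.64, edgeR, adjusted p = 0.188). Tap2 stood at 161, 131 and 72.4 CPM under NaCl and at 235, 153 and 246 CPM under H89. The overlap came from the same tumor as for Tap1. Tap2 averaged 121 ± 45 and 211 ± 50.9 CPM (SD, n = 3 each), with a log2 fold change of 0.73 (SE 0.30, 95% interval 0.04 to 1.41, edgeR, adjusted p = 0.182). The log2 ratio of Tap1 to Tap2 CPM differed between the groups by 0.12 (exact permutation test, p = 0.4). Tapbp, tapasin, which bridges the transporter and the empty heavy chain, had 505, 391 and 193 CPM in the NaCl tumors and 659, 374 and 666 CPM in the H89 tumors. H89 tumor 2 was below NaCl tumors 1 and 2. Tapbp averaged 363 ± 158 and 566 ± 167 CPM (SD, n = 3 each), with a log2 fold change of 0.57 (SE 0.35, 95% interval -0.25 to 1.39, edgeR, adjusted p = 0.352). Exons of Tap1 overlap those of Psmb9 on the opposite strand. Exons of Tap2, Tapbp, Psmb8 and Nlrc5 overlap those of neighbouring transcripts, for Tapbp in part on the same strand. Of their 31-base words, 14.3% for Tap2, 26.9% for Tapbp, 13.7% for Psmb8 and 0.579% for Nlrc5 also occur in transcripts of other genes. Whether strand was used in counting is not given in the sources used here, so counts of overlapping genes are uncertain.

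Psmb8, Psmb9 and Psmb10 encode the inducible catalytic subunits of the immunoproteasome. Psmb8 read 128, 110 and 50.7 CPM in the NaCl and 213, 104 and 210 CPM in the H89 tumors. Psmb9 read 101, 79.3 and 31.7 CPM in the NaCl and 140, 77.2 and 189 CPM in the H89 tumors. Psmb10 read 125, 119 and 53.9 CPM in the NaCl and 220, 102 and 176 CPM in the H89 tumors. For all 3 subunits H89 tumors 1 and 3 were above, and H89 tumor 2 within, the NaCl range. Mean CPM under NaCl and H89 was 96 ± 40.3 and 176 ± 62.4 for Psmb8, 70.5 ± 35.3 and 136 ± 56.1 for Psmb9, and 99.5 ± 39.6 and 166 ± 59.6 for Psmb10 (SD, n = 3 each). Log2 fold changes were 0.80 (SE 0.38), 0.86 (SE 0.44) and 0.67 (SE 0.37), with edgeR adjusted p of 0.231, 0.259 and 0.293. Psmb9 varied most of the 10 members, its highest tumor reading 5.97 times its lowest, and B2m least, at 1.84 times.

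The constitutive subunits that these replace, Psmb5, Psmb6 and Psmb7, gave log2 fold changes of -0.05, -0.13 and -0.05 (edgeR, adjusted p = 0.779, 0.438 and 0.785). Their 95% intervals were -0.29 to 0.19, -0.35 to 0.09 and -0.27 to 0.17. All 3 were below 0 with TMM scaling, but 2 of the 3 were above 0 in limma on unscaled CPM, so that their direction depended on the scaling. The ratio of an inducible to its constitutive subunit is taken within a tumor and is free of that choice. Averaged over Psmb8/Psmb5, Psmb9/Psmb6 and Psmb10/Psmb7, the log2 ratio was 0.43, 0.06 and -1.08 in the NaCl tumors and 0.92, 0.05 and 1.13 in the H89 tumors. The inducible subunits weighed most in H89 tumors 1 and 3 and least in NaCl tumor 3, while H89 tumor 2 and NaCl tumor 2 were alike. The means were -0.19 ± 0.79 and 0.70 ± 0.57 (SD, n = 3 each), a difference of 0.90 (two-sided exact permutation test, p = 0.3, where 0.1 is the smallest possible). The groups overlapped through H89 tumor 2. By pair, the difference was 0.89 for Psmb8/Psmb5 (exact permutation p = 0.3), 1.06 for Psmb9/Psmb6 (p = 0.2) and 0.74 for Psmb10/Psmb7 (p = 0.3). Without NaCl tumor 3 the averaged difference was 0.45.

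**Figure D2:**
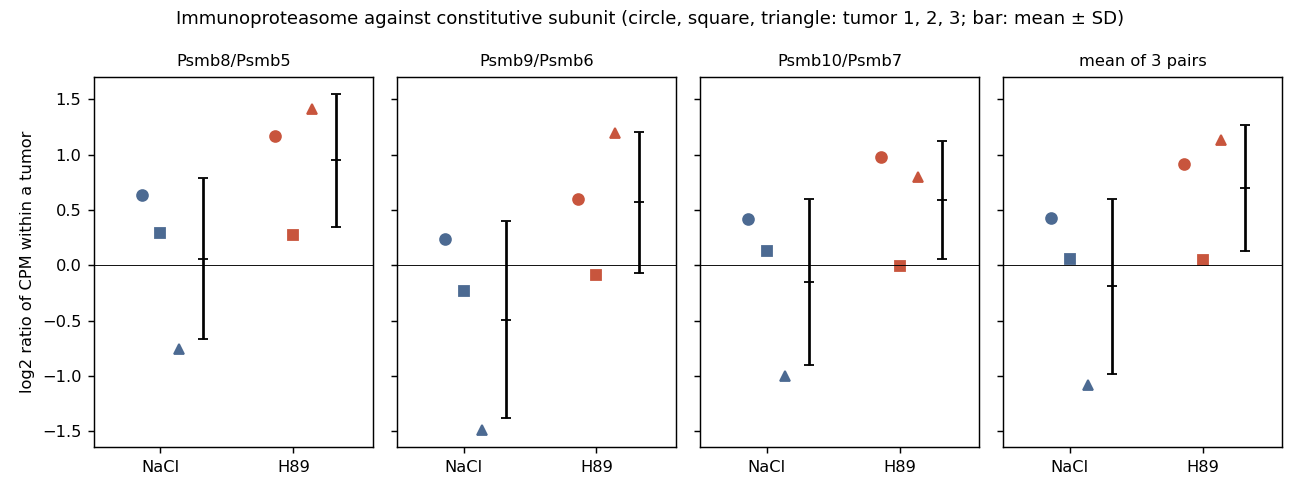
Log2 ratio of CPM of each immunoproteasome subunit to the constitutive subunit it replaces (y axis), and the mean of the 3 pairs, in each tumor, with the group mean and SD of 3 tumors as a bar. The ratios are not corrected for gene length, so that only differences between tumors can be read. In the mean of the pairs the H89 tumors span 0.05 to 1.13 and the NaCl tumors -1.08 to 0.43, with an overlap from H89 tumor 2.

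Nlrc5, the class I transactivator, had the widest difference of the 10. The NaCl tumors held 69.5, 60.8 and 35.9 CPM of it and the H89 tumors 114, 84.7 and 158. The lowest H89 tumor lay above the highest NaCl tumor, with and without TMM scaling. The means were 55.4 ± 17.5 and 119 ± 36.8 CPM (SD, n = 3 each), and the log2 fold change was 1.02 (SE 0.28, 95% interval 0.38 to 1.67), a 2.03-fold higher fitted level. The unadjusted p was 0.00649 and the edgeR adjusted p was 0.0888, while DESeq2 gave an adjusted p of 0.00204, and over all alternatives the adjusted p ran from 0.00204 to 0.191. An exact permutation test of its log2 level gave p = 0.1, the smallest possible here. Per kilobase, Nlrc5 was the least abundant of the 10 genes in both groups, at 7.31 CPM per kb under NaCl and 15.7 under H89.

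**Figure D3:**
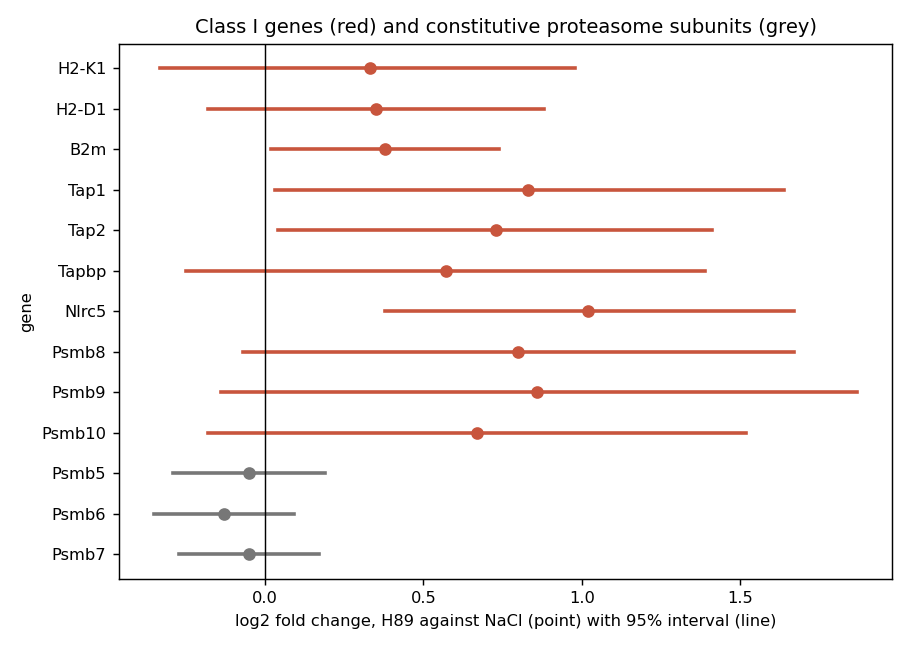
Log2 fold change of H89 against NaCl (x axis, point) with its 95% interval from edgeR (line) for the 10 class I genes in red and the 3 constitutive proteasome subunits in grey. The intervals of B2m, Tap1, Tap2 and Nlrc5 lie above 0, before adjustment for the number of genes tested, and those of the other 6 members and of Psmb5, Psmb6 and Psmb7 include 0.

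The members varied together from tumor to tumor. NaCl tumor 3 was the lowest of the 6 tumors for all 10 genes, H89 tumor 3 the highest for 8, and H89 tumor 1 the highest for Psmb8 and Psmb10. H89 tumor 2 was the lowest H89 tumor for all 10 and stayed within the NaCl range for 8. The mean log2(CPM + 0.5) of the 10 genes was 8.29, 8.05 and 7.15 in the NaCl tumors and 8.79, 8.09 and 8.89 in the H89 tumors, so that the 3 tumors near the middle came from both groups. Over the 6 tumors the 45 pairs of members had Pearson correlations of log2(CPM + 0.5) between 0.87 and 0.998, with a median of 0.98, which describes 6 libraries in which the members share each library's scaling. Without NaCl tumor 3 the log2 fold changes of the members were smaller, from 0.07 for H2-K1 to 0.79 for Nlrc5 with a median of 0.41, and 1 of the 10 (Nlrc5) had an unadjusted p under 0.05, against 19.2% of all genes tested. The same count of 1, again Nlrc5, was left without NaCl tumor 2, H89 tumor 1 or H89 tumor 3, beside 18.8%, 26.3% and 20.0% of all genes. It was 7 without NaCl tumor 1 or without H89 tumor 2, beside 21.5% and 18.3%.

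**Figure D4:**
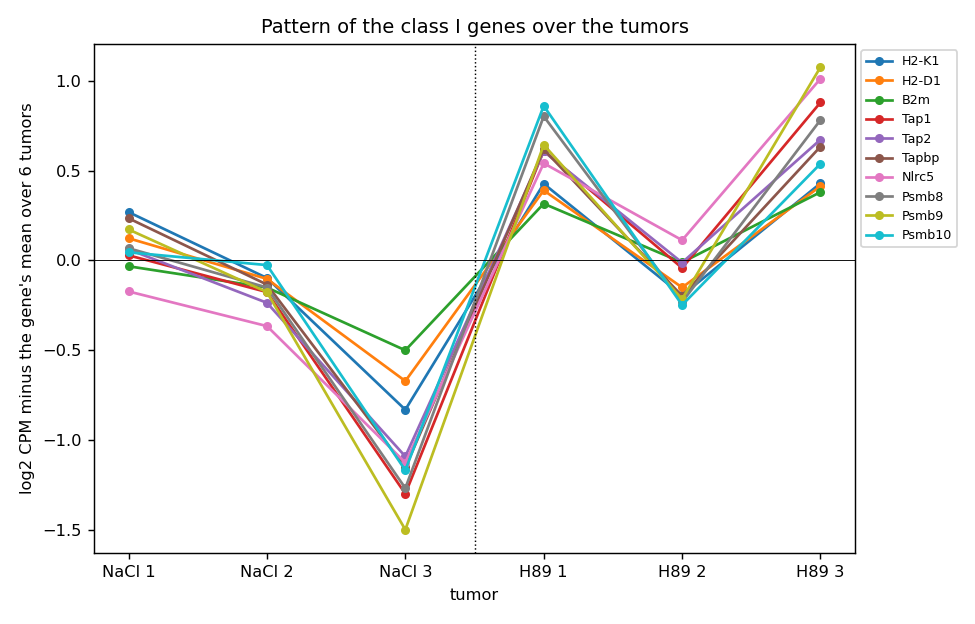
Log2 CPM of each class I gene minus that gene's mean over the 6 tumors (y axis) by tumor (x axis, NaCl left and H89 right of the dotted line). Lines only join the points of 1 gene, as the tumors have no order. All 10 genes are lowest in NaCl tumor 3, and H89 tumor 2 lies near the level of NaCl tumors 1 and 2.

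Among the 10454 other genes with a mean CPM of at least 5, the 8 whose log2(CPM + 0.5) followed the mean of the members most closely over the 6 tumors were Igtp, Irgm2, Gm4841, Gbp3, H2-T10, Samhd1, Il18bp and Gm8909, with Pearson correlations between 0.994 and 0.999. Igtp and Irgm2 encode immunity-related GTPases and Gbp3 a guanylate-binding protein, families known as interferon-gamma responsive, Samhd1 encodes a dNTPase that restricts viruses, and Il18bp the decoy that binds interleukin-18. Igtp, the closest, read 115, 88.8 and 25.5 CPM in the NaCl tumors and 217, 85.2 and 239 in the H89 tumors. It repeats the order of the members, lowest in NaCl tumor 3 and overlapping through H89 tumor 2, and its log2 fold change was 1.16 (SE 0.55, edgeR, adjusted p = 0.233).

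The rest of the class I pathway was read from 8 lists by role, 75 genes in all, of which 72 were found in the table and 70 passed the filter. By edgeR 0 of the 70 had an adjusted p under 0.05, and at an unadjusted p under 0.05 there were 19 higher and 5 lower in H89 (13.1% and 11.9% of all genes tested). Of 72 genes tested by DESeq2, 12 were called higher and 1 (Rela) lower, and limma called 0. Over all genes with a DESeq2 adjusted p, 4.94% were called higher and 10.8% in either direction. Other class I and class I-like heavy chains had the most values above 0, in 16 of the 17 tested, with 7 higher and 1 lower at an unadjusted p under 0.05 and a median log2 fold change of 0.55. H2-Q10, a class I chain best known as a secreted liver protein, had 41.7, 37.5 and 25.6 CPM in the NaCl and 76.3, 62.2 and 106 CPM in the H89 tumors. The groups did not overlap, and its log2 fold change was 1.14 (SE 0.23, edgeR, adjusted p = 0.0523). H2-T23, which encodes Qa-1, the ligand of the inhibitory NKG2A receptor of NK and CD8+ T cells, was singled out after its values were seen, and read 57.8, 58.8 and 31.1 CPM in the NaCl tumors against 154, 77.6 and 144 in the H89 tumors. Its groups did not overlap either, and the log2 fold change was 1.28 (SE 0.32, edgeR, adjusted p = 0.0796). Fcgrt, the neonatal Fc receptor that also pairs with B2m, was the only 1 of the 17 below 0, at -0.36 (SE 0.15, edgeR, adjusted p = 0.182). Like H2-K1 and H2-D1, the H2-Q and H2-T genes are near copies of one another, so that reads may have been assigned to the wrong one. Counts of the H2-Q and H2-T genes could not be checked against a BALB/c reference either, and H2-L and H2-T3 were not analysed here.

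**Figure D5:**
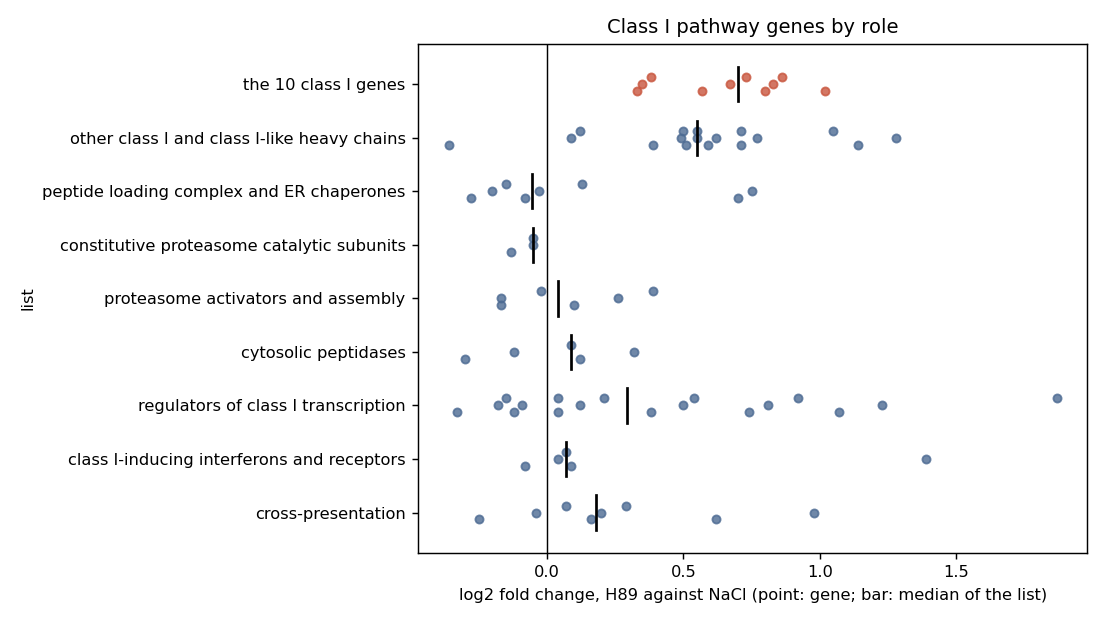
Log2 fold change of H89 against NaCl from edgeR (x axis, 1 point per gene tested) for the 10 class I genes in red and the 8 lists of other pathway genes in blue, with the median of each list as a black bar. The medians are 0.70 for the 10 genes, 0.55 for the other heavy chains and 0.29 for the regulators, while those of the remaining lists lie between -0.05 and 0.18.

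Of the chaperones and loading factors of class I, 3 of 8 were above 0, with 2 higher and 1 lower at an unadjusted p under 0.05 and a median of -0.05. Erap1, the aminopeptidase that trims peptides in the endoplasmic reticulum, averaged 57.1 CPM under NaCl and had a log2 fold change of 0.70 (SE 0.20, edgeR, adjusted p = 0.0959), its H89 tumors (82.6, 79 and 132 CPM) all above its NaCl tumors (58.8, 65.9 and 46.5 CPM). Tapbpl, a tapasin-like peptide editor that was the other of the 2 higher, had a log2 fold change of 0.75 (edgeR, adjusted p = 0.159). Ergic3, a protein of the early secretory pathway, stood at -0.28 (edgeR, adjusted p = 0.159). Proteasome activators and assembly factors were split with 3 above and 3 below 0, among them the activator subunits Psme2 at 0.39 (edgeR, adjusted p = 0.323) and Psme3 at -0.17 (adjusted p = 0.327), and 0 of 6 had an unadjusted p under 0.05. Of 5 cytosolic peptidases, 3 were above 0, with Tpp2 at 0.32 (edgeR, adjusted p = 0.125) and Thop1 at -0.30 (adjusted p = 0.184), both under 0.05 before adjustment. The cross-presentation genes were above 0 in 6 of 8 with a median of 0.18, from the dendritic cell receptor Clec9a at 0.98 (edgeR, adjusted p = 0.151) to the translocon subunit Sec61a1 at -0.25 (adjusted p = 0.144), with 2 higher and 1 lower at an unadjusted p under 0.05.

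Regulators of class I transcription were above 0 in 13 of 18, with 7 higher and 1 lower at an unadjusted p under 0.05 and a median log2 fold change of 0.29. Stat2, a signal transducer of the type I interferon receptor, read 74.5, 71 and 39.3 CPM in the NaCl and 187, 96.2 and 172 CPM in the H89 tumors. The groups did not overlap, and the log2 fold change was 1.23 (SE 0.31, edgeR, adjusted p = 0.08). Rela, the NF-kB subunit p65, went the other way, with 168, 149 and 140 CPM under NaCl, 126, 123 and 133 CPM under H89 and a log2 fold change of -0.33 (SE 0.10, edgeR, adjusted p = 0.102). Of the interferons that induce class I and their receptors, 4 of 5 were above 0 and 0 of 5 had an unadjusted p under 0.05, while Ifnb1 was below the filter. Ifng, the gene of interferon-gamma, was near the filter, at 0.998, 0.665 and 0.0717 CPM in the NaCl and 1.79, 0.595 and 2.46 CPM in the H89 tumors. Its tumors followed the order of the members in that NaCl tumor 3 was lowest and H89 tumor 3 highest, and its log2 fold change of 1.39 had an SE of 0.74 (edgeR, adjusted p = 0.283). The receptor gene Ifngr2 stood at -0.08 (edgeR, adjusted p = 0.527).

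Beside the members, several marker lists of host cells had nearly all their log2 fold changes above 0, and in whole tumors more cells of a type and more RNA per cell cannot be told apart. NK cell markers had log2 fold changes above 0 in 5 of 5 tested (4 at an unadjusted p under 0.05), with summed CPM of 14.4, 12.4 and 5.63 under NaCl and 30.9, 17.3 and 41.6 under H89, and Klra8 listed at 0 in all tumors. CD8 T cell markers were above 0 in 6 of 6 (3 at an unadjusted p under 0.05), with summed CPM of 16.5 to 76.6 under NaCl and 40.5 to 167 under H89, and Trac not analysed here. By summed CPM NaCl tumor 3 was lowest and H89 tumor 3 highest in both lists, as for most of the members. Most of the CD8 sum came from Gzmb and Prf1, which NK cells also express. Cd3e, Gzmb and Prf1 were lowest in NaCl tumor 3, but Cd3g, Cd8a and Cd8b1 were lowest in NaCl tumor 2. Conventional dendritic cell markers were above 0 in 5 of 5 tested, all at an unadjusted p under 0.05, with summed CPM of 10.3 to 11 under NaCl and 16.5 to 20.9 under H89. Itgae, the integrin CD103, was the 1 of these called by edgeR (adjusted p = 0.0443). In the dendritic cell sum, Zbtb46 alone averaged 7.6 CPM under NaCl and 10.4 under H89. Xcr1, Clec9a and Batf3 were near the filter under NaCl, with means of 0.32, 0.634 and 0.623 CPM, and Flt3 and Cd209a were below it. Pan-leukocyte markers were above 0 in 4 of 5 (2 at an unadjusted p under 0.05), with summed CPM of 389 to 468 under NaCl and 440 to 645 under H89, and the common leukocyte antigen Ptprc had a log2 fold change of 1.01 (edgeR, adjusted p = 0.0547). Fibroblast markers were above 0 in 5 of 5 (3 at an unadjusted p under 0.05), with summed CPM of 2418 to 2585 under NaCl and 2943 to 3486 under H89. The part of these cells in the class I values was not tested.

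The remaining marker lists are given by their ranges. Macrophage markers summed to between 1135 and 1954 CPM under NaCl and between 1613 and 1985 under H89, with 0 of 7 at an unadjusted p under 0.05. Endothelial markers were below 0 in 5 of 5, with 0 at an unadjusted p under 0.05 and summed CPM of 89.8 to 154 under NaCl and 78.2 to 123 under H89. B cell markers summed to 1.34 to 1.83 CPM under NaCl and 2.28 to 3.54 under H89, with 1 of 2 tested at an unadjusted p under 0.05. Keratinocyte markers summed to 2.25 to 3.73 under NaCl and 3.75 to 4.79 under H89, with 0 of 1 tested at that threshold. Neutrophil markers summed to 15.4 to 20.1 under NaCl and 20.9 to 36.7 under H89. Of the 4 neutrophil markers tested, 2 were above 0 and 2 below, and 1 was at that threshold (Csf3r, edgeR, adjusted p = 0.0682). The sums of these lists did not overlap between the groups. Krt1, Dsg1a and Ly6g were listed at 0. Skeletal muscle markers reached 17.2 summed CPM in H89 tumor 1 and 0.287 to 1.75 in the other tumors. Of the genes that define colon epithelium, Epcam, Vil1 and Cdx2 were below the filter, so the label of the tissue rests here on the grafted line and not on these markers.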

How the data were processed

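Total RNA of the frozen tumors was sequenced by the authors on a BGISEQ-500 instrument, and a single table was deposited, with 6 tumors as rows and 23557 genes as columns. The submitters' processing notes name kallisto, DESeq2 and the build GRCm38, and versions are not given in the sources used here. Although the table is called TPM, it holds deposited estimated counts of each gene, not scaled for depth or length, since each tumor sums to between 27067349 and 31958793. Each tumor's condition and number came from its label. Fractions arise where reads were shared between transcripts, and values were rounded to whole numbers before testing.

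CPM is a tumor's estimated count divided by its total, times 1000000. Genes with a mean CPM of at least 0.5 (13118) entered edgeR 4.0.16 under R 4.3.3 (TMM, glmQLFit, glmQLFTest, treatment as the only term), with Benjamini-Hochberg adjustment over all genes tested and 0.05 as the threshold; the procedure was tested on simulated data. The SE is the log2 fold change over the square root of F. Ratios and sums were compared by exact permutation (two-sided, 10 splits where no block was used). The precision is limited by 3 tumors per group, not by depth, at which 1 count is under 0.1 CPM. Alternatives were DESeq2 1.42.0 (the tool of the study's own comparison), limma 3.58.1 on log2(CPM + 0.5) and log2(CPM + 1) or after quantile normalization, median ratio normalization, other filters, a replicate block and leaving out each tumor. Positions and shared 31-base words came from GENCODE M21. Members, gene lists and tests were chosen with earlier results of these data known. Beside the members, the genes named are those with the smallest p in each direction of each pathway list, any with an adjusted p under 0.05, Psmb5, Psmb6 and Psmb7, the 8 genes of closest pattern among those with a mean CPM of at least 5, and marker genes; H2-T23, Tapbpl and Ciita were named after their values were seen.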

Additional observations from a re-analysis of the deposited data

How the results depend on the processing

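The 10 members kept a log2 fold change above 0 in all 140 values from the 14 alternatives, and 1 of these values had an adjusted p under 0.05. The median of the members ran from 0.41 without NaCl replicate 3 to 0.95 without NaCl replicate 1, beside 0.70. DESeq2 called 1 member, Nlrc5 (log2 fold change 1.01), and gave 2 at an unadjusted p under 0.05 in place of 4, beside 17.7% of all genes it tested. Leaving out 1 tumor moved that count to between 1 and 7, beside 18.3% to 26.3% of all genes. Over all genes, 208 were called (113 higher and 95 lower in H89), against 1406 with DESeq2, 80 with quantile normalization (55 higher and 25 lower), and 0 to 12 with 1 tumor left out. Limma on log2(CPM + 0.5) called 171, 143 higher and 28 lower, the mean CPM filter of 5 left 124 higher and 73 lower, and no filter gave 144 higher and 167 lower of 311. The causes of these differences were not tested.

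With the replicate number as a block, 0 genes were called, 3 members had an unadjusted p under 0.05, beside 28.6% of all genes, and the lowest adjusted p of a member was 0.125. Deviations of same-numbered tumors from their group means correlated at 0.16, 0.06 and -0.03. NaCl tumor 1 correlated best with its own number, and NaCl tumors 2 and 3 with another number. With deviations taken within only 3 tumors per group, these correlations cannot decide whether the numbers pair the tumors. The immunoproteasome ratio differed by 0.90 and the summed heavy chains by 0.53 under the block too (exact permutation p = 0.5 each). Leaving out 1 tumor gave 0.45 to 1.22 for the ratio and 0.27 to 0.73 for the sum, both lowest without NaCl replicate 3. With 3 tumors per group the exact test without the block cannot go below 0.1, and that floor does not hold for the block. A fold change whose interval includes 0 was not shown to be absent.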

Other observations

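Ciita, the transactivator of MHC class II and the counterpart of Nlrc5, was singled out after its values were seen. It read 3.81, 3.87 and 0.632 CPM in the NaCl tumors and 9.37, 6.44 and 16.6 CPM in the H89 tumors, without overlap, and its log2 fold change was 1.87 (SE 0.59, edgeR, adjusted p = 0.111). Krt18, a keratin of simple epithelia, stood in the opposite direction, with 12.7, 13.2 and 23.1 CPM under NaCl and 8.16, 7.98 and 8.79 CPM under H89, and a log2 fold change of -1.04 (edgeR, adjusted p = 0.0653). Other genes of its marker list, colon epithelium and CT26 tumor cell, did not share this direction, as 4 of the 6 tested were above 0 and 2 below. The keratins Krt8 and Krt19, both near the filter, stood at 1.03 and 2.56 (edgeR, adjusted p = 0.487 and 0.213).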
